A study of Mus musculus with 12 samples.

Results

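The genes of the adrenomedullin peptides and their receptor were followed in cultured murine melanoma cells that carry a BrafV600E allele. The set held 6 of the 30705 gene names in the deposited table. They are the peptide genes Adm and Adm2, the receptor gene Calcrl, and the genes of the receptor activity modifying proteins Ramp1, Ramp2, and Ramp3, and all were found under these names. Adm was chosen by its RPKM values in these samples, for changes of opposite direction between the lines, so its values are given as a description, without a test. The other 5 genes were added because their products form this peptide family and its receptors.

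RNA-seq covered 12 samples in 4 groups of 3. Every group came from the same BrafV600E melanoma cells, isolated from a C57BL/6 mouse with the genotype Braf+/LSL-V600E;Tyr::CreERT2+/o;p16INK4a-/-, in which a Tyr promoter drives the inducible Cre and p16INK4a is lost also in the control. Scramble cells served as the control. The other lines were edited by CRISPR/CAS9, ptgs1-KO in the gene of COX-1, ptgs2-KO in that of COX-2, and ptges-KO in that of mPGES-1, the enzymes that lead from arachidonic acid to prostaglandin E2. The edited cells were selected with puromycin and subcloned by limiting dilution. The study describes the 3 RNA samples of a line in one place as subclones and in another as independent samples, so the spread between samples may be that between clones or between cultures. No drug or time point entered the comparisons.

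Adrenomedullin is a secreted peptide hormone best known as a dilator of blood vessels and as a factor needed for the growth of lymphatic vessels. It acts through CALCRL, a class B G protein-coupled receptor that reaches the cell surface only together with a RAMP. RAMP1 makes it a receptor for calcitonin gene-related peptide, whereas RAMP2 and RAMP3 make it a receptor for adrenomedullin, and adrenomedullin 2 (intermedin) can use all of these pairs. The receptor couples to Gs and raises cAMP, as do the EP2 and EP4 receptors of prostaglandin E2. Adm is also a textbook target of hypoxia-inducible factors.

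The promoters of Adm and Adm2 are shown because these peptide genes had their highest level in the same line. Each line gives the 250 bases before the RefSeq transcription start on the GRCm38.p6 assembly, read 5′ to 3′ on the strand of the gene. Adm lies on the plus strand at chr7:110627657-110629820 and its promoter at chr7:110627407-110627656. Adm2 lies on the plus strand at chr15:89322720-89324731 and its promoter at chr15:89322470-89322719. Capitals mark the letters TATAA on either strand.
Adm: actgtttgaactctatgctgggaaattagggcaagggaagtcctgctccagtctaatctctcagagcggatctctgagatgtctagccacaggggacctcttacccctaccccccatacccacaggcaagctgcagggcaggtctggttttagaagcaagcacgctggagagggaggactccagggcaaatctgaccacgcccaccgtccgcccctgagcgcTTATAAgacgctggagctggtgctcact
Adm2: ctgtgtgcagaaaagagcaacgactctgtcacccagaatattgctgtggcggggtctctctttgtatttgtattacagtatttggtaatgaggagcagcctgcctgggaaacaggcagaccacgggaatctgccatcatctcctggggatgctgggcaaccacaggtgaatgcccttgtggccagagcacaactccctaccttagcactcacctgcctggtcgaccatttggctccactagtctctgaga
The sequences of 5 motifs were looked for on both strands of the 250 bases before each member's start. Adm held TATAA on the plus strand, from 27 to 23 bases before the start, and an overlapping copy on the other strand, from 28 to 24 bases before it. TATAA was present in 22.8% of the 32851 RefSeq promoters of this length. Neither Adm nor Adm2 held ACGTG, a form of the hypoxia response core (16.6% of promoters), or TGACG, the cAMP response half-site (17.8%). Nor did they hold the AP-1 letters TGANTCA (6.75%) or the ATF4 composite letters TGATGNAA (3.45%). The form GCGTG of the hypoxia response core was not searched for. The Adm sequence above holds it on the other strand, as cacgc, and the Ramp3 promoter holds it on both strands. Its share over all promoters was not computed, so these matches do not set any member apart. The Calcrl promoter at chr2:84425267-84425516, on the minus strand, held TGATGTAA from 75 to 68 bases before the start. The RefSeq start used for Calcrl lies inside the gene span given below, so this match is within that span. The start used for Ramp3 also lies inside its gene span. Ramp1 and Ramp3 held none of the 5 motifs. Ramp2 (chr11:101246334-101248250) was not in the table of promoters used here.

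The table gave no counts. From the spacing of its low values the depth was estimated at 13.5 to 17.0 M reads per sample. This estimate assumes whole reads and has no interval. The mRNA of each targeted gene was lowest in its own line, at 10.6% of the scramble mean for Ptgs1, 10.5% for Ptgs2, and 47.9% for Ptges. In ptgs1-KO cells Ptges was also lower, at 70.2% of the scramble mean (limma adjusted p = 0.00110), as was Ptgs2, at 78.5% (adjusted p = 0.0386). Replicate 3 of ptgs1-KO stood apart, with 32.2% of its summed values in its 20 highest genes. Of 9 melanocyte lineage markers, Mitf (mean 2.30 RPKM) and Gpnmb (19.7 RPKM) had a mean of at least 1 over the 12 samples, and Sox10, Dct, Tyrp1, and Mlana were listed at 0 in all of them. Tyr and Pmel were low, with means of 0.699 and 0.520 RPKM, and above 0 in every sample. The summed level of these markers was 19.4 to 20.9 RPKM in scramble, 50.6 to 58.5 in ptgs1-KO, 11 to 12.4 in ptgs2-KO, and 5.28 to 6.83 in ptges-KO samples, most of it Gpnmb. The part of this marker level in the results was not tested.

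The Adm mRNA level was far higher in ptges-KO cells than in any other line and close to 0 in ptgs1-KO and ptgs2-KO cells. In scramble cells it was 5.20, 5.68, and 4.69 RPKM, a mean of 5.19 ± 0.495 (SD, n = 3). In ptgs1-KO cells the 3 samples were at 0, 0.10, and 0.10 RPKM. In ptgs2-KO cells they were at 0.10, 0.13, and 0.18 RPKM.
All 6 of these samples were below every scramble sample. In ptges-KO cells the values were 64.31, 54.19, and 53.94 RPKM, with a mean of 57.5 ± 5.92 RPKM (SD, n = 3), 11.1 times the scramble mean. The lines thus fell into 3 separate levels, and ptgs1-KO and ptgs2-KO samples overlapped with each other. On the log2(RPKM + 1) scale, the difference from scramble was -2.54 in ptgs1-KO, -2.44 in ptgs2-KO, and 3.24 in ptges-KO cells, and this scale understates the differences of the low lines. For the 1390-base transcript of Adm, 1 read was worth an estimated 0.0424 to 0.0534 RPKM, so the low lines rested on about 0 to 4 reads per sample, the scramble values on 102 to 120.0 reads, and the ptges-KO values on 1258 to 1430.3 reads. The samples were bulk RNA, in which fewer cells with a transcript and less of it per cell cannot be told apart.

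**Figure D1:**
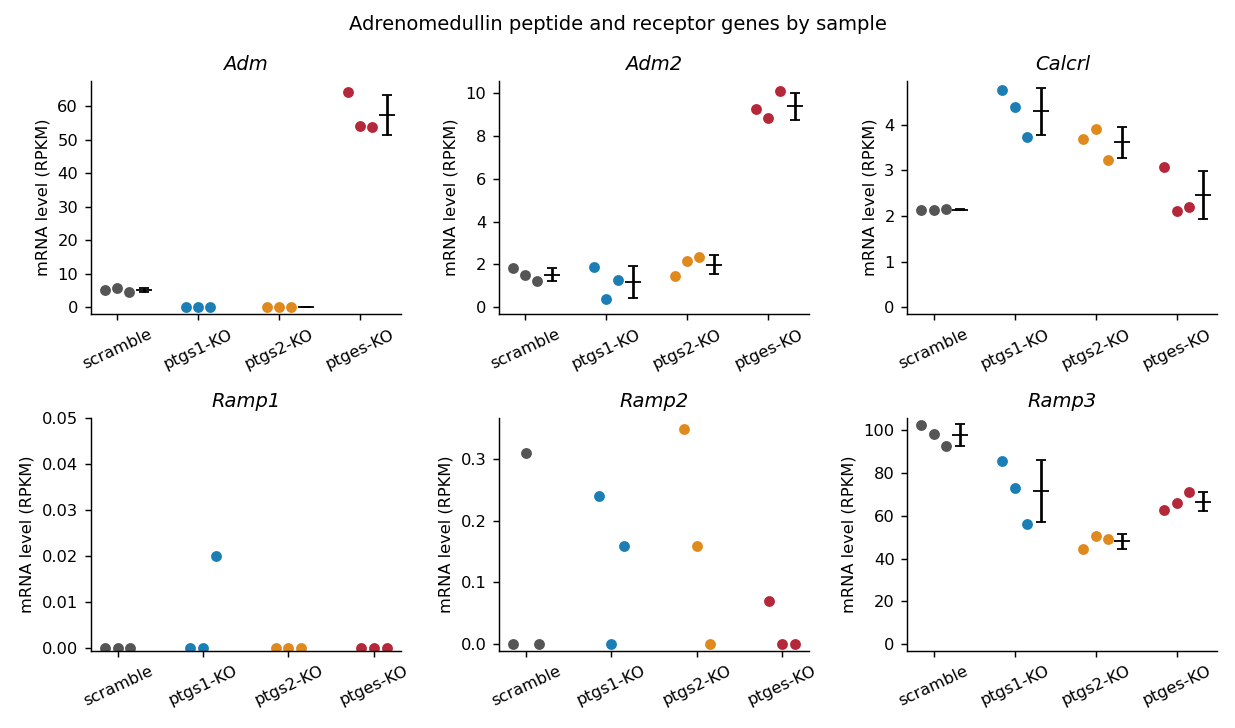
mRNA level in RPKM (vertical axes, each from about 0 on its own scale) of the 6 genes in the 12 samples, with 1 panel per gene and 1 point per sample. Black bars give the mean ± SD of 3 samples and are left out where a sample is listed at 0. Adm and Adm2 are highest in the 3 ptges-KO samples, Calcrl in the ptgs1-KO and ptgs2-KO samples, and Ramp3 in the scramble samples, and Ramp1 and Ramp2 stay below 0.4 RPKM.

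Adm2 codes for adrenomedullin 2, and its level rose in ptges-KO cells as well, but it was not lost in the other lines. Scramble samples were at 1.84, 1.5, and 1.23 RPKM. The ptgs1-KO samples were at 1.86, 0.40, and 1.29 RPKM. The ptgs2-KO samples were at 1.48, 2.14, and 2.35 RPKM.
These 9 values overlapped between the 3 lines. The ptges-KO samples, at 9.23, 8.84, and 10.07 RPKM, were above all of them. Their mean of 9.38 ± 0.629 RPKM (SD, n = 3) was 6.16 times the scramble mean of 1.52 ± 0.306 RPKM. The difference was 2.05 (SE 0.215) on log2(RPKM + 1), with a limma adjusted p of 2.38e-05 over 11282 genes.
Against ptgs1-KO and ptgs2-KO cells, Adm2 was higher in ptges-KO cells by 2.31 (adjusted p = 3.89e-06) and 1.81 (adjusted p = 7.29e-05). The differences from scramble did not pass the test in ptgs1-KO (-0.26, 95% interval -0.73 to 0.20, adjusted p = 0.510) or ptgs2-KO cells (0.24, 95% interval -0.23 to 0.71, adjusted p = 0.509). Over all 15400 divisions of the samples, the exact permutation test of F gave p = 0.00461 for differences among the 4 lines. Between ptgs2-KO and ptgs1-KO cells the difference was 0.50 (95% interval 0.04 to 0.97), which missed the threshold after adjustment (adjusted p = 0.111). Without the first ptgs1-KO sample it passed (0.73, adjusted p = 0.0253). The second ptgs1-KO sample, at 0.40 RPKM, set the sign of the ptgs1-KO value, which was 0.03 without it.

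The share of Adm in the summed RPKM of both peptide genes was 73.9% to 79.2% in scramble and 84.3% to 87.4% in ptges-KO samples. The share was 0% to 20% in ptgs1-KO and 5.72% to 7.11% in ptgs2-KO samples, in which Adm2 was the peptide gene with the higher level in every sample. Because Adm was chosen for its values, this share is a description.

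Calcrl (chr2:84330626-84425405), the gene of the receptor shared by these peptides, was at a low level in all lines and was higher in the lines with the lowest Adm level. Scramble samples were at 2.14, 2.12, and 2.16 RPKM. The ptgs1-KO samples were at 4.75, 4.39, and 3.73 RPKM. The ptgs2-KO samples were at 3.68, 3.91, and 3.23 RPKM.
No sample of these 2 knockout lines overlapped with scramble. The ptges-KO samples, at 3.06, 2.11, and 2.20 RPKM, overlapped with scramble, and 1 of them stood above the other two. Calcrl rose in ptgs1-KO cells, to 2.00 times the scramble mean (log2 difference 0.75, SE 0.127, limma adjusted p = 0.00214), and in ptgs2-KO cells, to 1.69 times (0.55, SE 0.127, adjusted p = 0.0143), although the second call ended when the second ptgs2-KO sample was left out (0.50, adjusted p = 0.0584). In ptges-KO cells the difference from scramble was 0.13 (95% interval -0.15 to 0.40, adjusted p = 0.502).
The ptges-KO level was lower than that of ptgs1-KO cells by a log2 difference of -0.62 (adjusted p = 0.00268) and than that of ptgs2-KO cells by -0.42 (adjusted p = 0.0382). The latter missed the threshold without the filter on low values (adjusted p = 0.063), with only these 2 lines in the model (adjusted p = 0.0774), and without any 1 of scramble replicates 1 and 3, ptgs2-KO replicates 1 and 2, and ptges-KO replicates 2 and 3, with adjusted p up to 0.159. Between ptgs2-KO and ptgs1-KO cells, the difference of -0.20 (95% interval -0.47 to 0.08) did not pass the test (adjusted p = 0.296). The exact permutation test over the 4 lines gave p = 9.09e-04. Blood endothelium, in which Calcrl is prominent, was not seen by its markers: 0 of 6 had a mean of at least 1 RPKM, 3 were listed at 0 in all samples, and their sum was 0.03 to 0.28 RPKM over the 12 samples.

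Of the 3 RAMP genes, only Ramp3 had a mean of at least 1 RPKM. Ramp1 (chr1:91179822-91225196) was listed at 0 in 11 of 12 samples and at 0.02 RPKM in the third ptgs1-KO sample. At the estimated depth that value is 0.25 reads, less than 1 whole read, so the read numbers given here are approximate. Ramp2, the partner of CALCRL in the endothelial adrenomedullin receptor, was at 0, 0.31, and 0 RPKM in scramble, at 0.24, 0, and 0.16 in ptgs1-KO, at 0.35, 0.16, and 0 in ptgs2-KO, and at 0.07, 0, and 0 in ptges-KO samples. These values rested on an estimated 0 to 4.24 reads. The lines overlapped (exact permutation p = 0.667), and a difference was not detectable at this depth. Both genes fell under the filter on low values, so 4 of the 6 genes entered the model.

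Ramp3 (chr11:6658506-6677478), whose product pairs with CALCRL in an adrenomedullin receptor and takes part in its recycling, was the receptor component with the highest level in every sample, and it fell in all 3 knockout lines. Scramble samples were at 102.68, 98.41, and 92.59 RPKM. The ptgs1-KO samples were at 85.54, 73.11, and 56.37 RPKM. The ptgs2-KO samples were at 44.28, 50.76, and 48.97 RPKM.
The ptges-KO samples were at 62.91, 65.89, and 71.27 RPKM, within the range of the ptgs1-KO samples. All 9 knockout values were below the lowest scramble value, and the ptgs2-KO values were below all others. The mean fell from 97.9 ± 5.06 RPKM in scramble to 71.7 ± 14.6 in ptgs1-KO, 48.0 ± 3.35 in ptgs2-KO, and 66.7 ± 4.24 in ptges-KO cells (SD, n = 3 each).
The log2 difference from scramble was -1.01 in ptgs2-KO cells (SE 0.122, limma adjusted p = 1.60e-04) and -0.55 in ptges-KO cells (SE 0.122, adjusted p = 0.00547). In ptgs1-KO cells it was -0.46 (SE 0.122, adjusted p = 0.0301). That last call ended without the third ptgs1-KO sample, which stood apart (-0.30, adjusted p = 0.0649), without the second ptgs1-KO sample (adjusted p = 0.0606), without any 1 of the 3 scramble samples (adjusted p up to 0.112), and in 2 of the other settings.
Between knockout lines, Ramp3 was lower in ptgs2-KO than in ptgs1-KO cells (-0.55, adjusted p = 0.00517) and higher in the ptges-KO than in the ptgs2-KO line (0.47, adjusted p = 0.0188). The latter call ended without the first ptgs2-KO sample (adjusted p = 0.0752) and without ptges-KO replicate 2 (0.0556) or 3 (0.0779). Between ptges-KO and ptgs1-KO cells the difference was -0.08 (95% interval -0.35 to 0.18, adjusted p = 0.639). The exact permutation test over the 4 lines gave p = 0.00110.

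**Figure D2:**
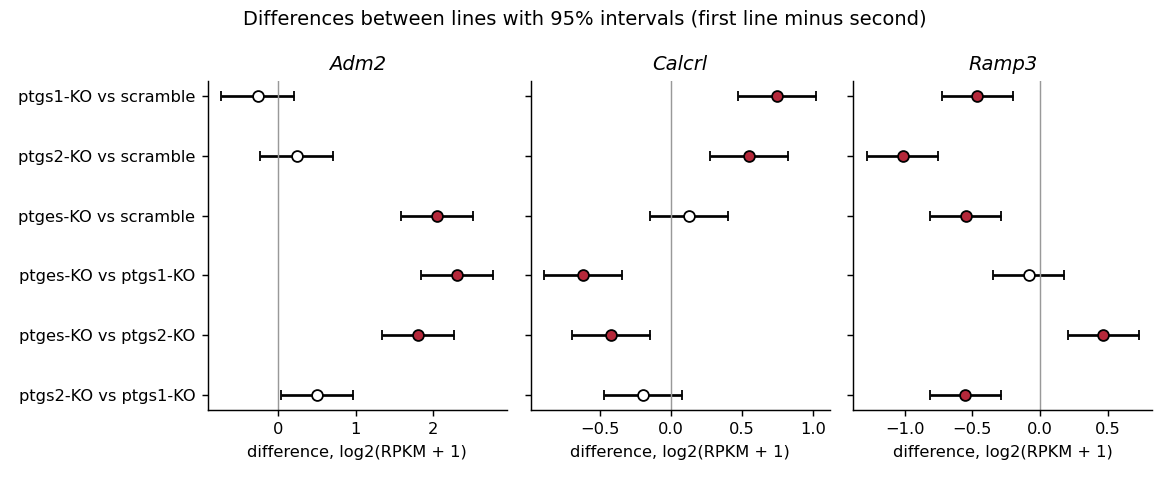
Difference in log2(RPKM + 1) between lines, first line minus second (horizontal axes), with 95% intervals from the limma model, for the 6 pairs of lines (rows) and the 3 tested genes other than Adm (panels). Filled points have an adjusted p under 0.05. Adm2 has filled points in the 3 rows with ptges-KO cells, with 2.05 against scramble, Calcrl is higher in ptgs1-KO and ptgs2-KO cells than in scramble, and Ramp3 is lower than scramble in all 3 knockout lines.

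Among Adm2, Calcrl, and Ramp3, the test was passed by 2 in ptgs1-KO cells (Calcrl higher and Ramp3 lower), where 9.26% of all genes tested passed, by the same 2 genes in ptgs2-KO cells, where 11.1% passed, and by 2 in ptges-KO cells (Adm2 higher and Ramp3 lower), where 26.3% passed. These 3 comparisons share the scramble samples. Between knockout lines, 2 of the 3 passed for ptges-KO against ptgs1-KO (30.2% of all genes), 3 for ptges-KO against ptgs2-KO (16.6%, with 6.76% higher and 9.84% lower), and 1 for ptgs2-KO against ptgs1-KO cells (23.6%).

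The ratio of Ramp3 to Calcrl was taken in each sample, a measure chosen after the values were seen. Its size assumes values per length, as the name RPKM states, but the methods of the study also call them normalized counts; the comparison of the ratio between lines does not depend on this. Ramp3 was the more abundant mRNA in every sample. The ratio was 42.9 to 48.0 in scramble samples, 20.6 to 32.4 in ptges-KO, 15.1 to 18.0 in ptgs1-KO, and 12 to 15.2 in ptgs2-KO samples. The ptgs1-KO and ptgs2-KO samples overlapped narrowly, and the other lines did not. Every knockout sample was below every scramble sample. The exact permutation test on the log2 ratio over the 4 lines gave p = 1.30e-04. Because the ratio was chosen after both genes had been seen to differ, this p is a description.

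**Figure D3:**
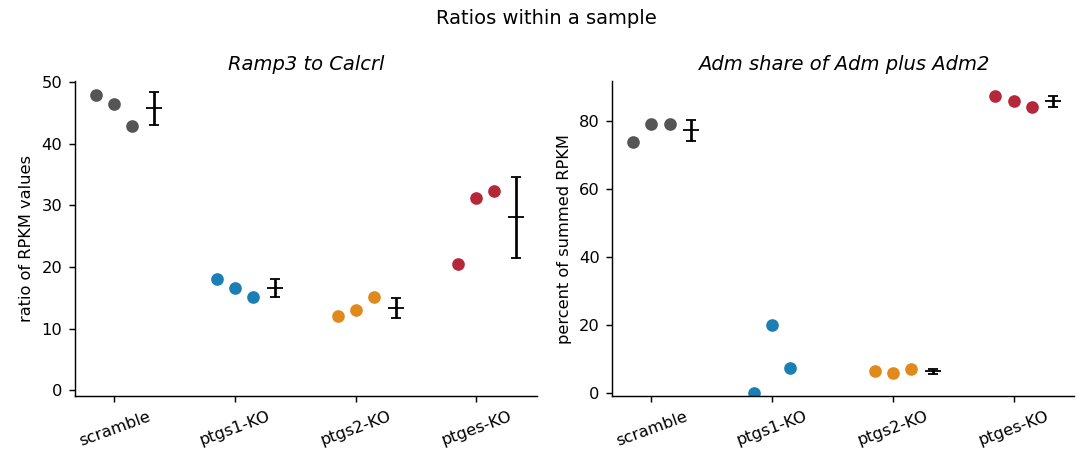
Ratio of Ramp3 to Calcrl RPKM (left) and share of Adm in the summed RPKM of Adm and Adm2 in percent (right) in each of the 12 samples, by line. Points are samples and black bars the mean ± SD of 3 samples, left out where a sample is at 0. The Ramp3 to Calcrl ratio is highest in scramble samples, at 42.9 to 48.0, and the Adm share is 20% or less in ptgs1-KO and ptgs2-KO samples.

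The remaining genes of the calcitonin family gave little signal. Of 7 listed, Calca (the gene of calcitonin and of a calcitonin gene-related peptide), Iapp (amylin), and Calcr (the calcitonin receptor) were at 0 in all samples, and 2 entered the test. Cxcr7, also named Ackr3, codes for a chemokine receptor that scavenges adrenomedullin. Its mean fell from 2.94 ± 0.881 RPKM in scramble to 0.783 ± 0.1 in ptgs1-KO (log2 difference -1.12, limma adjusted p = 3.48e-04) and 0.673 ± 0.0737 in ptges-KO cells (-1.21, adjusted p = 1.04e-04). In ptgs2-KO cells it was 1.78 ± 0.201 RPKM (-0.48, adjusted p = 0.0595). Of 13 other class B receptors, such as those of glucagon, secretin, and parathyroid hormone, none reached a mean of 1 RPKM, and 6 were at 0 in all samples.

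Of 11 genes for peptide processing and clearance, 5 were tested, and few passed. Pam, the enzyme that amidates the C-terminus of adrenomedullin and of other peptide hormones, was abundant. It rose from 183.5 ± 4.23 RPKM in scramble to 254.3 ± 24.7 in ptgs1-KO cells (log2 difference 0.46, adjusted p = 0.00350), and fell to 142.1 ± 8.45 in ptgs2-KO (-0.37, adjusted p = 0.0139) and 147.5 ± 11 in ptges-KO cells (-0.32, adjusted p = 0.0153). Leaving out 1 library ended the ptgs2-KO call for scramble replicate 1 or 3 or ptgs2-KO replicate 3, and the ptges-KO call for scramble replicate 3 or ptges-KO replicate 2 or 3, with adjusted p up to 0.0640 and 0.0716. Pcsk7, a proprotein convertase, fell in ptges-KO cells by 0.46 on the log2 scale (adjusted p = 0.00853). Over this list, 1 gene rose in ptgs1-KO (median log2 difference 0.07, with 4.65% of all genes tested higher), 1 fell in ptgs2-KO (median -0.08, 5.17% of all genes lower), and 2 fell in ptges-KO cells (median -0.26, 14.4% of all genes lower).

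Downstream of the receptor, 16 of 24 genes of Gs and cAMP signalling were tested, and they moved both ways. In ptges-KO cells 3 rose and 3 fell (median log2 difference over the list -0.01, against -0.03 over all genes tested, of which 11.9% rose and 14.4% fell). Gnas, which codes for the Gs alpha subunit, rose from 732.1 ± 17.2 to 1074.4 ± 44.4 RPKM in ptges-KO cells (log2 difference 0.55, adjusted p = 2.82e-04). Prkar2b, a regulatory subunit of protein kinase A, rose from 67.2 ± 1.98 to 112.3 ± 4.29 RPKM (0.73, adjusted p = 2.38e-05).
Rapgef3, the cAMP-activated exchange factor EPAC1, fell from 23.6 ± 3.39 to 13.3 ± 0.250 RPKM in ptges-KO cells (-0.77, adjusted p = 2.10e-04) and to 16.1 ± 1.09 RPKM in ptgs2-KO cells (-0.52, adjusted p = 0.00730). Adcy7, an adenylyl cyclase, rose from 3.25 ± 0.291 to 10.3 ± 0.351 RPKM in ptgs2-KO cells (1.42, adjusted p = 1.76e-05) and fell to 1.90 ± 0.357 RPKM in ptges-KO cells (-0.56, adjusted p = 0.00877). In ptgs2-KO cells 4 genes of the list rose and 1 fell (median 0.10, with 5.97% of all genes higher and 5.17% lower), and in ptgs1-KO cells 1 rose and 1 fell (median 0.09, with 4.65% higher and 4.61% lower). The 1 that fell in ptgs1-KO cells was Crtc2, a CREB coactivator (-0.40, adjusted p = 0.00393).
The number of genes of this list that passed moved between 2 and 6 in ptgs2-KO and between 1 and 2 in ptgs1-KO cells when libraries were left out in turn. Of 10 cAMP phosphodiesterases, which end the signal, 5 were tested, with a median difference of 0.24 in ptges-KO cells, where 2 rose (11.9% of all genes tested rose), and 0.08 in ptgs1-KO cells, where 1 rose and 1 fell (4.65% of all genes rose and 4.61% fell). Pde4b rose from 2.00 ± 0.180 to 4.38 ± 0.383 RPKM in ptges-KO cells (0.84, adjusted p = 2.20e-04). Pde8b rose from 0.693 ± 0.102 RPKM to 1.91 ± 0.373 in ptges-KO (0.78, adjusted p = 0.00118) and 1.86 ± 0.327 in ptgs1-KO cells (0.75, adjusted p = 0.00313).
For receptor trafficking and desensitization, 11 of 12 genes were tested, of which 1 rose and 1 fell in ptgs1-KO (median 0.04), 1 fell in ptgs2-KO (median 0.05), and 1 rose and 1 fell in ptges-KO cells (median 0.09). Of all genes tested, 4.65% rose and 4.61% fell in ptgs1-KO, 5.17% fell in ptgs2-KO, and 11.9% rose and 14.4% fell in ptges-KO cells. Arrb1, the arrestin that stops receptor signalling, fell from 5.54 ± 1.88 to 1.79 ± 0.412 RPKM in ptgs2-KO cells (-1.2, adjusted p = 8.77e-04). Grk6, a receptor kinase, fell in ptgs1-KO (-0.40, adjusted p = 0.00288) and ptges-KO cells (-0.37, adjusted p = 0.00234).

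Adm is a target of hypoxia-inducible factors, and a list of 26 other such targets was followed, of which 20 were tested. In ptges-KO cells 13 rose and 1 fell (median log2 difference 0.44, against -0.03 over all genes), where 11.9% of all genes tested rose and 14.4% fell. In ptgs1-KO cells 1 rose and 10 fell (median -0.26, against 0.01 over all genes), where 4.65% of all genes rose and 4.61% fell. In ptgs2-KO cells 1 rose and 2 fell (median -0.05), where 5.97% rose and 5.17% fell.
The genes that rose in ptges-KO cells included the glycolytic enzyme Pgk1, from 1000.4 ± 9.77 to 2169.8 ± 132.1 RPKM (1.11, adjusted p = 5.42e-07). Bnip3, a mitophagy receptor, rose from 104.5 ± 2.12 to 213.7 ± 7.99 RPKM (1.02, adjusted p = 4.54e-06) and fell to 66.3 ± 8.26 RPKM in ptgs1-KO cells (-0.66, adjusted p = 3.83e-04). Ndrg1 rose from 50.4 ± 2.93 to 102.6 ± 4.85 RPKM in ptges-KO cells (1.01, adjusted p = 2.19e-06) and fell to 35.1 ± 0.605 RPKM in ptgs2-KO cells (-0.51, adjusted p = 0.00169). Pdk1, a pyruvate dehydrogenase kinase, rose from 55.1 ± 4.04 to 105.5 ± 11.3 RPKM (0.92, adjusted p = 2.68e-05).
The list did not move as a whole. Vegfa differed from scramble by -0.13 in ptgs1-KO, -0.11 in ptgs2-KO, and -0.05 in ptges-KO cells, none past the test, and Pfkfb4 fell in ptges-KO cells (-0.48, adjusted p = 0.0176, up to 0.0794 without 1 library). In ptgs1-KO cells the largest fall was that of Ak4, a mitochondrial adenylate kinase, from 15.2 ± 2.50 to 6.51 ± 0.960 RPKM (-1.10, adjusted p = 7.82e-04). Without the first scramble or the first ptgs1-KO sample, 7 genes of the list passed in ptgs1-KO cells instead of 11.
Against ptgs1-KO cells, 17 of the 20 targets were higher in ptges-KO cells and 1 was lower (median 0.74). Of all genes tested, 13.2% were higher and 17% lower. Against ptgs2-KO cells, 13 targets were higher in ptges-KO cells and 1 was lower (median 0.53). Of all genes, 6.76% were higher and 9.84% lower. Adm was near 0 in both ptgs1-KO and ptgs2-KO cells, where its values overlapped. Between these 2 lines, 9 targets were higher in ptgs2-KO cells and 2 were lower (median 0.28). Of all genes, 12.1% were higher and 11.6% lower. Against scramble, 17 of the 20 targets did not pass the test in ptgs2-KO cells, which does not show that they were unchanged. A part of hypoxia-inducible factors in the Adm level was not tested.

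**Figure D4:**
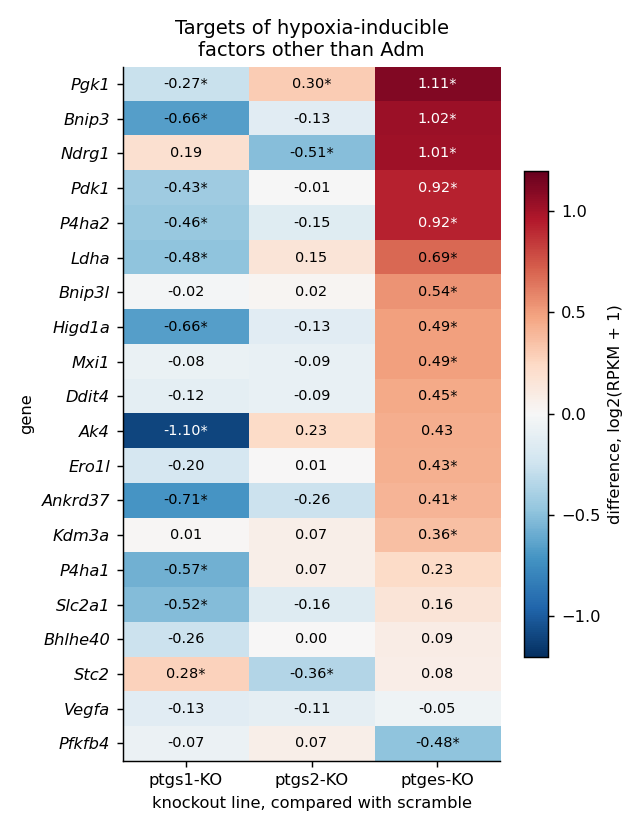
Difference from scramble in log2(RPKM + 1) (color scale and printed values) for 20 targets of hypoxia-inducible factors other than Adm (rows) in the 3 knockout lines (columns), ordered by the ptges-KO value. Stars mark differences past the test. Of the 20 genes, 13 are starred and positive in the ptges-KO column and 10 are starred and negative in the ptgs1-KO column, and the ptgs2-KO column has 3 stars.

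Of the factors and their regulators, 8 of 10 were tested. Egln3, a prolyl hydroxylase that marks the factors for degradation and is itself one of their targets, fell from 3.12 ± 0.402 RPKM in scramble to 0.163 ± 0.0833 in ptgs1-KO (log2 difference -1.82, adjusted p = 4.73e-07) and 0.303 ± 0.0569 in ptgs2-KO cells (-1.66, adjusted p = 1.62e-06). Its level was low in the same lines as that of Adm. In ptges-KO cells it was 1.98 ± 0.161 RPKM, also below scramble (-0.46, adjusted p = 0.0132, up to 0.124 in 5 of 19 other settings), unlike Adm. Egln1 rose in ptges-KO cells from 60.9 ± 2.00 to 83.2 ± 8.16 RPKM (0.44, adjusted p = 0.00311). Arnt2, a dimer partner of the factors, rose in ptgs1-KO cells from 12.8 ± 1.51 to 28.2 ± 2.49 RPKM (1.09, adjusted p = 8.87e-05).

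Of 20 genes of other vasoactive peptides and receptors, 7 were tested. Nppb, the gene of B-type natriuretic peptide, another vasodilator, fell from 81.3 ± 6.46 RPKM in scramble to 43.9 ± 9.52 in ptgs2-KO (log2 difference -0.90, adjusted p = 0.00821) and 36.5 ± 7.75 in ptges-KO cells (-1.16, adjusted p = 7.14e-04), in which Adm was highest. Edn1, the gene of the vasoconstrictor endothelin 1, rose in ptges-KO cells from 2.38 ± 0.140 to 3.88 ± 0.113 RPKM (0.53, adjusted p = 0.0140). Pthlh fell in ptgs2-KO (-0.47, adjusted p = 0.00191) and ptges-KO cells (-0.58, adjusted p = 1.87e-04). Npr2, the receptor of C-type natriuretic peptide, rose in ptgs1-KO cells (0.68, adjusted p = 0.00294) and fell in ptgs2-KO cells (-1.0, adjusted p = 1.74e-04). Over the list, 1 gene rose in ptgs1-KO (median 0.03), 3 fell in ptgs2-KO (median -0.27), and 2 rose and 2 fell in ptges-KO cells (median -0.16). Of all genes tested, 4.65% rose in ptgs1-KO, 5.17% fell in ptgs2-KO, and 11.9% rose and 14.4% fell in ptges-KO cells.

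Of the 5 protein-coding genes on each side of Adm, 8 were tested. Where Adm was highest, in ptges-KO cells, 1 of them rose (11.9% of all genes tested rose), but 5 rose with median-ratio scaling, 5 with quantile normalization, and 4 with the replicate block, and the median difference of the 8 was 0.26 in the main model. In ptgs1-KO cells, where Adm was near 0, 2 rose (4.65% of all genes), and 3 under each of these settings. Sbf2, whose RefSeq end lies 12723 bases before the Adm gene, differed from scramble by 0.36 in ptgs1-KO, -0.01 in ptgs2-KO, and 0.01 in ptges-KO cells, none past the test.
Ampd3, the next gene on the other side at a distance of 137970 bases, had 0.473 RPKM in scramble, 5.72 in ptgs1-KO, 0.323 in ptgs2-KO, and 1.38 in ptges-KO cells. It rose in ptgs1-KO (log2 difference 2.19, adjusted p = 2.08e-07) and ptges-KO cells (0.70, adjusted p = 0.00228), and in ptgs1-KO cells Adm was near 0. In RefSeq it overlaps Rnf141, and whether the counting used strand is not given in the sources used here. Swap70 also rose in ptgs1-KO cells (0.35, adjusted p = 0.0179), a call that 4 of the libraries ended when left out, with adjusted p up to 0.0869. In ptgs2-KO cells 0 of the 8 passed limma's test, 3 had an unadjusted p under 0.05, and 1 rose under each of the 3 other settings.
Around Adm2, 3 of 8 tested neighbors fell in ptges-KO cells, where Adm2 rose and 14.4% of all genes tested fell. They were Plxnb2 (-0.58, adjusted p = 0.0104), Fam116b (-0.48, adjusted p = 0.0365, up to 0.136 in 7 of 19 other settings), and Sbf1 (-0.57, adjusted p = 8.59e-04), which ends 7409 bases before Adm2.
Around Calcrl, 7 neighbors were tested. In ptgs1-KO cells 1 rose (4.65% of all genes tested), and in ptgs2-KO cells 1 rose and 1 fell (5.97% and 5.17%). In ptges-KO cells 2 rose and 1 fell (11.9% and 14.4%). Zc3h15 rose in ptgs2-KO (0.34, adjusted p = 0.00500) and ptges-KO cells (0.43, adjusted p = 4.53e-04). Fam171b rose in ptges-KO cells (0.42, adjusted p = 0.0336, up to 0.121 in other settings). Tfpi, 7450 bases beyond Calcrl, codes for an inhibitor of blood coagulation. It rose from 4.88 RPKM in scramble to 9.46 in ptgs1-KO cells (0.81, adjusted p = 0.00193), as Calcrl did, but fell to 0.493 in ptgs2-KO (-1.98, adjusted p = 8.72e-07) and 0.410 in ptges-KO cells (-2.06, adjusted p = 3.76e-07). Around Ramp3, 4 neighbors were tested. In ptgs1-KO cells 1 rose (4.65% of all genes tested), in ptgs2-KO cells 1 fell (5.17%), and in ptges-KO cells 2 fell (14.4%). Igfbp3, 528608 bases beyond Ramp3, rose in ptgs1-KO (1.40, adjusted p = 4.97e-07) and fell in ptgs2-KO (-1.26, adjusted p = 1.89e-06) and ptges-KO cells (-0.42, adjusted p = 0.00560). Tns3 fell in ptges-KO cells (-0.27, adjusted p = 0.0356, up to 0.136 in other settings).

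**Figure D5:**
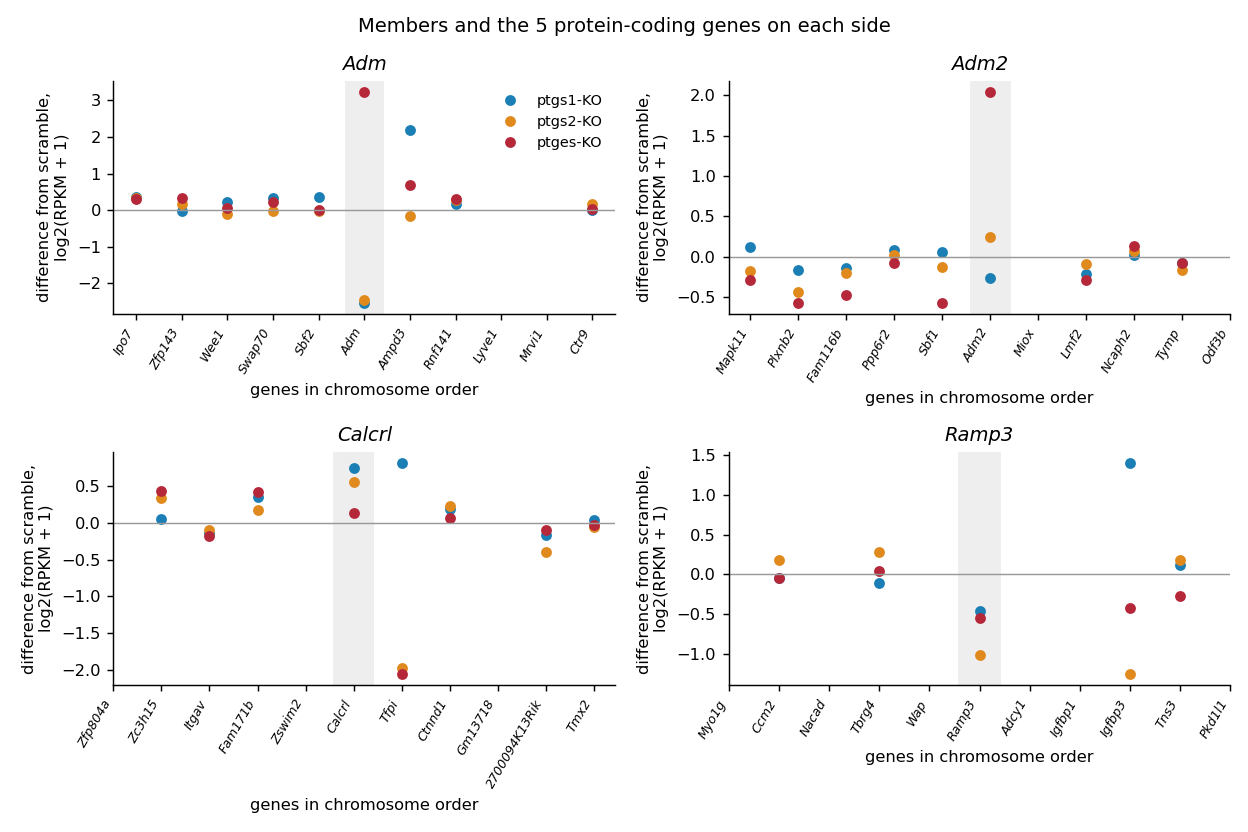
Difference from scramble in log2(RPKM + 1) (vertical axes) for Adm, Adm2, Calcrl, and Ramp3 (shaded) and the 5 protein-coding genes on each side in chromosome order (horizontal axes, not to distance), colored by knockout line. Genes with a mean under 1 RPKM have no point. Adm sits at 3.24 in ptges-KO and -2.54 in ptgs1-KO cells, and Adm2 at 2.05 in ptges-KO cells, while the median of the 8 tested genes around Adm is 0.26 in ptges-KO and 0.28 in ptgs1-KO cells.

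The genes whose profile over the 12 samples was most like that of Adm were sought among the 137 tested genes whose group means spanned at least 2 on the log2 scale. The 12 points are 4 lines with 3 samples each, so these correlations mostly compare 4 levels, and they are given as a description. Aldh1l2, a mitochondrial folate enzyme, had the highest Pearson r, 0.982, with means of 4.38 RPKM in scramble, 0.253 in ptgs1-KO, 0.243 in ptgs2-KO, and 12.8 in ptges-KO cells. Gpr149, an orphan receptor, followed with r = 0.982 and means of 2.35, 0.823, 0.230, and 14.2 RPKM in the same order of lines.
Ctsc, the protease cathepsin C, came next with r = 0.937, at 5.48, 0.0867, 2.87, and 34.8 RPKM. Unlike Adm, it kept part of its level in ptgs2-KO cells. For Fbln1, Magohb, Morn4, Pdzd4, and Itm2a r was 0.897 to 0.918. Of these 5, the 4 other than Pdzd4 were below 1 RPKM outside ptges-KO cells.
The most opposite profile was that of Masp1, a protease of the complement lectin pathway, with r = -0.981 and means of 19.0, 44.1, 36.1, and 9.38 RPKM. Spns2, a transporter of sphingosine 1-phosphate, Paqr7, and Prrg1 had r of -0.941 to -0.934. For Adm2, the closest profiles were those of Fbln1, Morn4, Itm2a, and Tigit, with r of 0.941 to 0.947, and Fbln1, Morn4, and Itm2a were also among the genes most like Adm.
For Ramp3 the closest of 138 candidates was B3gnt3 (r = 0.896), followed by Eng, an endothelial co-receptor for TGF-beta family ligands (0.820), Mamdc2 (0.816), and Ptgs2 (0.795), the gene edited in the line with the lowest Ramp3 level.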

How the data were processed

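RNA-seq was done on cultured cells in 12 samples, grouped by their labels. The authors deposited values to 2 decimals as RPKM, which their methods also call normalized counts, and the submitters' processing notes name the mm10 build. The aligner, the counting, and the annotation are not given in the sources used here. No counts were used here, so depth was estimated from the step of low values times transcript length in GENCODE M21, and no interval for counting error was computed.

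The 11282 of 30705 genes whose 12 values averaged 1 RPKM or more were tested on log2(RPKM + 1), a pseudocount of 1, in R 4.3.3 with limma 3.58.1 (lmFit, eBayes with a trend, all 12 samples, 6 pairwise contrasts). Calls used a threshold of 0.05 on p-values adjusted by Benjamini-Hochberg over the whole tested table. Such a scale understates differences of low genes. All members other than Adm, under the filter or not, were tested by an exact permutation of the F statistic, as was the ratio. This test has no direction and a smallest possible p of 6.49e-05. The steps were tested on simulated data. Plots were made with matplotlib 3.10.9 (Python 3.11.15).

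The members, lists, motifs, and tests were chosen with earlier results of these data known. Named genes were the 6 members, the 3 edited genes, and up to 4 genes per list and contrast that passed the test without overlap of the groups. Also named were neighbors of Adm, Adm2, Calcrl, and Ramp3 that passed against scramble. The 8 highest and 4 lowest correlations with Adm (4 highest for Adm2 and Ramp3) were named too. Neighbors of Ramp1 and Ramp2 that passed, such as Fam132b in ptgs1-KO cells (log2 difference -4.28), were left out of this rule. Sbf2, as the nearest neighbor of Adm, Vegfa, and Pfkfb4 were named outside this rule, after their values were seen. Promoters and positions were taken from RefSeq on GRCm38.p6, in which 5 of the 6 members had a promoter entry. P-values measure the spread between 3 samples per line, which the paper describes both as subclones and as independent samples. Alternatives were another pseudocount, no filter, 2 other scalings, a replicate block, 2 groups only, no trend, the Tukey test, and leaving out each sample.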

Additional observations from a re-analysis of the deposited data

Results flagged for a closer look

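Several genes differed between the knockout lines, by the contrast between these lines. The scramble samples do not enter the size of such a difference, but they enter the model's estimate of the spread and so its adjusted p. Adm2 was higher in ptges-KO cells than in ptgs1-KO cells by a log2 difference of 2.31 and than in ptgs2-KO cells by 1.81, in 3 of 3 samples each (limma adjusted p = 3.89e-06 and 7.29e-05). Calcrl differed by -0.62 between ptges-KO and ptgs1-KO cells (adjusted p = 0.00268) and by -0.42 between ptges-KO and ptgs2-KO cells (adjusted p = 0.0382). Ramp3 differed by 0.47 between ptges-KO and ptgs2-KO cells (adjusted p = 0.0188) and by -0.55 between ptgs2-KO and ptgs1-KO cells (adjusted p = 0.00517). For Adm every ptges-KO sample was above and every ptgs1-KO and ptgs2-KO sample below the scramble samples, with log2 differences of 5.77 and 5.68 between ptges-KO cells and these lines. Adm was chosen for this pattern, and the difference was not tested. With 3 samples per line, single outlying samples were not tested for. The knockout cells were subcloned, and a part of differences between clones in these contrasts was not tested.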

How the results depend on the processing

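With 3 samples per line, precision is set by the spread between samples, and the low Adm lines and Ramp2 rest on a few reads. With a pseudocount of 0.1, the Adm difference was -5.054 (ptgs1-KO), -4.492 (ptgs2-KO), and 3.444 (ptges-KO) from scramble, 8.498 and 7.936 for ptges-KO against ptgs1-KO and ptgs2-KO, and 0.5624 for ptgs2-KO against ptgs1-KO. Quantile normalization gave -2.421 and -2.306 for Adm in ptgs1-KO and ptgs2-KO cells. For Calcrl, ptges-KO against ptgs2-KO stayed at -0.4221 but missed the threshold without the filter and with 2 groups only, as did Ramp3 in ptgs1-KO cells at -0.4635. By the Tukey test Ramp3 differed by 18.69 RPKM between ptges-KO and ptgs2-KO cells, which missed the threshold. With each replicate left out in turn, the ranges were -0.4879 to 0.02739 for Adm2 in ptgs1-KO cells (the sign turned without ptgs1-KO replicate 2) and 0.2127 to 0.728 for Adm2 in ptgs2-KO against ptgs1-KO cells (adjusted p = 0.0253 without ptgs1-KO replicate 1). They were 0.5028 to 0.6104 for Calcrl in ptgs2-KO cells and -0.5435 to -0.3512 for Calcrl in ptges-KO against ptgs2-KO cells. For Ramp3 they were -0.5996 to -0.3031 in ptgs1-KO cells, 0.4106 to 0.5071 for ptges-KO against ptgs2-KO, and -0.2444 to 0.05209 for ptges-KO against ptgs1-KO cells (the sign turned without ptgs1-KO replicate 1). The causes were not tested. Of 360 values of Adm2, Calcrl, and Ramp3 under the alternatives, 337 kept their direction and side of the threshold. The 114 values of Adm, which was not tested, kept their direction. The count of all genes called was 1570 by quantile normalization in ptgs1-KO cells (1045 in the main model) and 1963 by median-ratio scaling in ptgs2-KO cells (1257). Without 1 replicate it was 639 to 1161 in ptgs1-KO, 721 to 1552 in ptgs2-KO, and 1945 to 3271 in ptges-KO cells, and 1107 to 2236 for ptges-KO against ptgs2-KO. Median-ratio scaling turned the latter comparison from 763 higher and 1110 lower genes to 1289 and 1205.

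Same-numbered samples did not resemble each other on average (mean correlation of deviations 0.0123 over 18 same-numbered pairs, from -0.341 to 0.566). Over 36 pairs with different numbers the mean was -0.00456, from -0.475 to 0.321. A mean near 0 does not show that no samples were paired. With the replicate number as a block, the genes called in ptges-KO cells were 3099 instead of 2969, and no call of Adm2, Calcrl, or Ramp3 changed.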
